A study of Mus musculus with 39 samples.

Results

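The genes described here are 5 that restrain or set the gain of antigen receptor signalling in lymphocytes: Ptpn22, Ptpn6, Ptprc, Csk and Inpp5d. They were taken by symbol, and the array carried 7 probe sets annotated to these symbols alone, of 20380 probe sets with 1 symbol in all, which stood for 12393 genes. Ptpn22 entered the set because it was known to be higher in leukemic pre-B cells than in normal pre-B cells on these same arrays. Its difference from pre-B cells is therefore a description here, with no test, and so are the leukemic differences of the other 4 genes, which were chosen as its partners with the leukemic results known.

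Antigen receptors on B and T cells signal through tyrosine kinases of the Src and Syk families, and a small group of enzymes keeps these kinases in check. Csk phosphorylates the inhibitory tail tyrosine of Src family kinases, and Ptprc, the transmembrane phosphatase CD45, removes that phosphate, so Ptprc can act for or against signalling. Ptpn22 is a cytosolic phosphatase, known as PEP in mouse, that binds Csk and removes the activating phosphates of Src and Syk family kinases. Ptpn6, the phosphatase SHP-1, docks on inhibitory receptors such as Cd22 and Cd72, and Inpp5d, the lipid phosphatase SHIP-1, acts with Fcgr2b to degrade the lipid messenger of PI3 kinase. In developing B cells the pre-B cell receptor and later the surface IgM use the same kinases.

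RNA of sorted B-lineage cells of mouse bone marrow was measured on 39 Affymetrix arrays. The normal cells came from adult mice and comprised 6 pro-B arrays (B220+ CD43+ IgM- IgD-), 8 pre-B arrays (B220+ CD43- IgM- IgD-), 6 immature B arrays (B220+ CD43- IgM+ IgD-) and 3 mature B arrays (B220+ CD43- IgM+ IgD+). The 16 leukemic arrays carried cells sorted with the pre-B markers from bone marrow of leukemic mice; the title of the series names the MLL-AF4 fusion, a leukemogenic joining of MLL with AF4, as its subject. Of these, 5 came from mice leukemic after pIpC, a synthetic double-stranded RNA that induces interferon, and for the other 11 no pIpC is named. The labels give no strain, no Cre driver and no age beyond adult. Leukemic array 116 carries the cell type leukemic preB. Its description says only that it was a knock-in mouse (Mll-AF4stop), not that the mouse was leukemic. The labels speak of 1 numbered mouse for each leukemic array but do not say whether the normal arrays came from separate mice, so p-values measure the spread between these arrays, which may be technical. B220 is a form of the Ptprc protein, so every array was sorted for a product of 1 of the 5 genes.

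The start regions of 3 of the genes are shown, that of Ptpn22 because its level ranged most widely over the stages. Ptpn6 and Ptprc were taken because the pooled means of both fell from pro-B to pre-B cells and rose from pre-B to immature B cells. For Ptprc the fall was small and rested on part of the pro-B arrays, as given below. Each start region is a RefSeq window of build GRCm38.p6 from 250 bases before to 50 bases after an annotated start, read 5′ to 3′ on the strand of the gene. Capitals mark AGGAAGT, a core bound by ETS family factors, or its reverse complement ACTTCCT. The motif was chosen after these windows had been read, and its 2 forms do not overlap each other in them.
Ptpn22, chr3:103859545-103859844, + strand: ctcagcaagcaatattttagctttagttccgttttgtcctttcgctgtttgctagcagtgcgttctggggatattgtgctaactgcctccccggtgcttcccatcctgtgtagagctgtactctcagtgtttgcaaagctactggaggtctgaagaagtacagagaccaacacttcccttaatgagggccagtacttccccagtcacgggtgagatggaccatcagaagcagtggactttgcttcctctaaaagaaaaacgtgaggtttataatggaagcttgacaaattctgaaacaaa
Ptpn6, chr6:124738660-124738959, - strand: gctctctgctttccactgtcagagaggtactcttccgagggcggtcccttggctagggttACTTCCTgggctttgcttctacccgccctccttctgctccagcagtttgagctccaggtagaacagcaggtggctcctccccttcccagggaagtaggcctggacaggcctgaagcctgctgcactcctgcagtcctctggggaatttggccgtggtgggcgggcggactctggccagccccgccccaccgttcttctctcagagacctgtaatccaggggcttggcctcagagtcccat
Ptprc, chr1:138175256-138175555, - strand: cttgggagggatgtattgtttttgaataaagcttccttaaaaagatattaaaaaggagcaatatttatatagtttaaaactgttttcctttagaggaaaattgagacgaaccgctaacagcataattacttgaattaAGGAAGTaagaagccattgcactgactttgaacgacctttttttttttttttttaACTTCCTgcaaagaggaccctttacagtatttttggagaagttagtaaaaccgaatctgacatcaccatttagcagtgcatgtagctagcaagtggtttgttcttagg
Over both strands, the letters were found in 4 of the 8 windows listed for the 5 genes, in 3 of the 5 genes (Ptpn6, Ptprc and Inpp5d), and in 9.35% of all 32851 promoter windows of the same length. The 2 windows of Ptprc overlap, and the match in the second is 1 of those in the first, so that site counts in both. Neither window of Ptpn22 and neither window of Csk held them. These are matches of letters only.

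Several arrays stood apart before any comparison. Leukemic array 122 went against its label as a pre-B sample: the mean of 5 measured B-lineage markers (of 6 listed; log2 intensity throughout) was 7.05 there, against 10.18 to 10.74 on the other leukemic arrays, while its means of the myeloid (9.76) and plasmacytoid dendritic (9.31) markers were the highest of the leukemic arrays. The values of the 5 genes in the leukemic group are therefore also given without it. Among the pro-B arrays, replicates 2, 4 and 6 had T and NK cell marker means of 9.16 to 9.41 and plasmacytoid dendritic means of 11.51 to 11.73, against 7.72 to 8.06 and 10.33 to 10.67 on replicates 1, 3 and 5. In accession order the arrays form a first run of 22 and a second run of 17, called run 1 and run 2 here, which split the replicates of each group except mature B (run 2 only). No label calls these runs a batch, but the 3′ minus 5′ difference of the array's beta-actin control probes was 1.18 to 1.46 in run 1 and 0.60 to 1.12 in run 2, so values within runs stand beside the pooled ones where they matter.

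Ptpn22 had a high, low, high course through normal B-cell development. On the pro-B arrays its log2 intensity was 7.75 at the lowest, 8.47 at the median and 8.99 at the highest, and on the pre-B arrays 5.19, 5.29 and 5.68. All 8 pre-B arrays lay below every pro-B array, and the means (8.42 ± 0.58, SD, n = 6, and 5.39 ± 0.20, n = 8) differed by -3.02, an 8.14-fold lower intensity. Ranges that did not overlap in this direction were seen for 7.08% of the genes measured. In these sorted pools, fewer cells with the transcript and less transcript per cell cannot be told apart. The pre-B arrays are those on which Ptpn22 was chosen, so neither of its steps at the pre-B stage was tested.

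Immature B cells, the first stage with surface IgM, had Ptpn22 values of 7.30, 7.80, 7.83, 4.87, 7.33 and 7.48 on replicates 1 to 6. Replicates 1, 2, 3, 5 and 6 lay above every pre-B array, and replicate 4 lay below every pre-B array. The mean (7.10 ± 1.12, SD, n = 6) was 1.71 above pre-B, or 2.16 without replicate 4. Replicate 4 also had the lowest immature B means of the IgM+ and mature B markers (8.97, the other 5 arrays 9.62 to 10.37) and of the plasmacytoid dendritic markers (6.88, the others 7.01 to 8.36). The same held for the myeloid (8.93, the others 9.84 to 10.83), erythroid (5.13, the others 5.55 to 6.62) and plasma cell markers (8.15, the others 8.86 to 10.23). Its B-lineage and T and NK means lay within the range of the others. The part of any of these in the Ptpn22 value was not tested.

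Mature B cells carried the most Ptpn22 among the normal stages, with values of 9.64, 8.02 and 10.07 on the 3 arrays. All 3 lay above every immature B array, as was so for 4.52% of genes. Their mean (9.25 ± 1.08, SD, n = 3) was 2.14 (SE 0.49) higher than that of immature B cells, 4.41-fold, with an adjusted p of 0.00845 by limma with Benjamini-Hochberg adjustment over all genes. Ptpn22 was the only one of the 5 genes called in this step, in which 5.25% of genes were called, those called higher being 1.96% of all. The call rested on few arrays: without mature B replicate 1 the adjusted p was 0.0857, without replicate 3 it was 0.106, and within run 2, which held all the mature B arrays and 3 immature B arrays, the difference was 1.60 with an adjusted p of 0.0656. Mature B replicate 3, the highest, also had the highest mature B means of the myeloid (11.30), erythroid (7.36), plasmacytoid dendritic (8.30), T and NK (6.08) and plasma cell (9.57) markers. Replicate 2, the lowest, had the lowest mean of each of these lists (9.33, 5.15, 7.22, 5.47 and 8.03). Its B-lineage mean (11.01) and its mean of pro-B and pre-B markers (7.07) lay above those of replicate 3 (10.74 and 6.82). The part of these markers in the Ptpn22 values was not tested.

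Against pro-B cells, mature B cells differed in Ptpn22 by 0.83 (95% interval -0.18 to 1.84; limma adjusted p = 0.209), with 2 of 3 mature B arrays above every pro-B array. Leaving out single arrays gave 0.41 to 1.44, and without mature B replicate 2 the difference of 1.44 was called (adjusted p = 0.0482). In order of the mean, Ptpn22 ran from pre-B through immature B, pro-B and leukemic pre-B cells to mature B cells, and the ranges of every neighbouring pair in that order overlapped. The pro-B level itself was not uniform. Replicates 2, 4 and 6, the arrays with more T, NK and plasmacytoid dendritic marker signal, had 8.96, 8.87 and 8.99, and replicates 1, 3 and 5 had 8.08, 7.86 and 7.75.

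**Figure D1:**
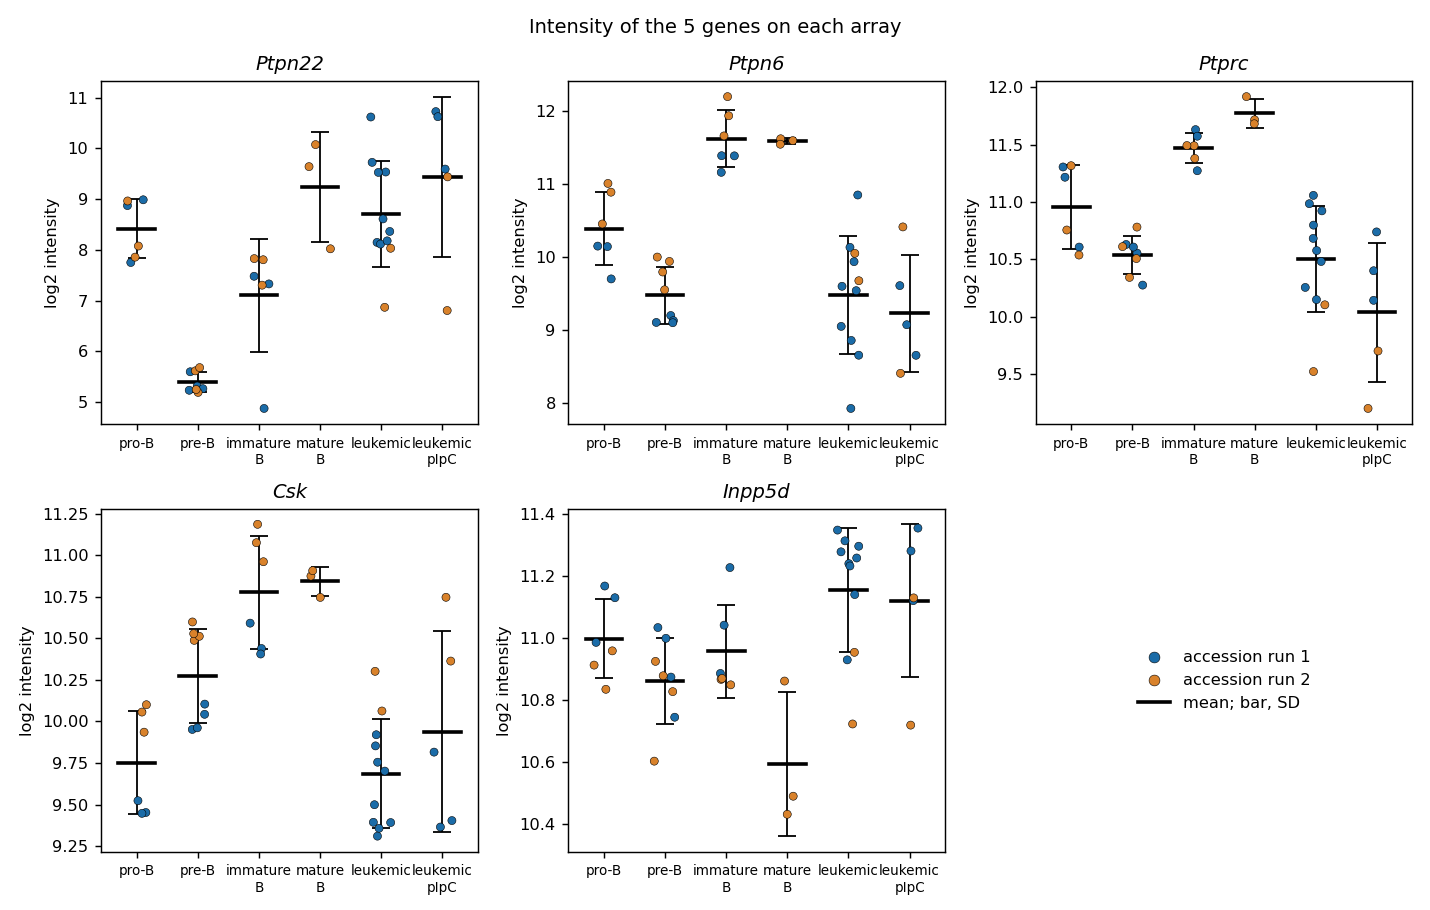
Log2 intensity of Ptpn22, Ptpn6, Ptprc, Csk and Inpp5d on each array (points, coloured by accession run) in the 4 normal stages and the 2 leukemic groups, with the group mean (line) and SD (bar). Each panel has its own vertical axis, and the 8 pre-B arrays (5.19 to 5.68) lie below every leukemic array (6.80 to 10.72) for Ptpn22.

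The T and NK list had 11 of 12 markers measured and its means ran from 7.72 to 9.41 on pro-B, 5.99 to 6.66 on pre-B, 5.35 to 5.75 on immature B, 5.47 to 6.08 on mature B and 4.91 to 7.0 on leukemic arrays. On pre-B arrays Cd3g and Gzmb were near background, taken by convention as the lowest 20% of gene means (below 3.99), and none of the 11 was near background on pro-B arrays. The plasmacytoid dendritic list had 8 of 10 markers measured, none near background in any group, with means of 10.33 to 11.73 on pro-B, 6.38 to 8.93 on pre-B and 6.24 to 9.31 on leukemic arrays. Ptpn22 is also made by T cells and other blood cells. The lowest pro-B arrays by these lists, replicates 1, 3 and 5, had means of both lists above every pre-B array and Ptpn22 above every pre-B array, with a mean difference of -2.50 for pre-B minus pro-B. The myeloid list (10 of 12 markers measured, Itgam near background in each group) had medians of 10.25 on pro-B, 9.21 on pre-B, 10.31 on immature B, 10.27 on mature B and 7.49 on leukemic arrays, so it too was lower at the pre-B stage than before and after it. The part of these markers in the levels of Ptpn22, and of Ptpn6 and Ptprc below, was not tested. The 4 leukemic arrays with the highest Ptpn22 (A992, A1507, 224 and 228, 9.72 to 10.72) had plasmacytoid dendritic means of 6.30 to 7.20, within or below the pre-B range of 6.38 to 8.93. Their T and NK means were 5.27 to 7.0, and that of A1507 (7.0) lay above the pre-B range.

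**Figure D2:**
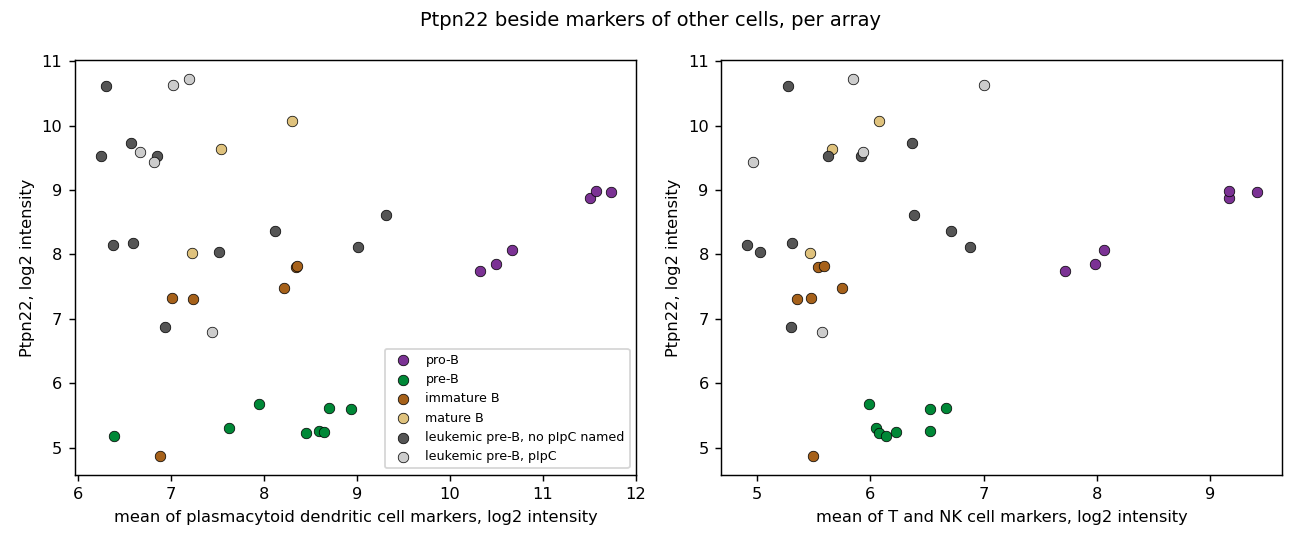
Log2 intensity of Ptpn22 (vertical axis) on each of the 39 arrays against the mean log2 intensity of plasmacytoid dendritic cell markers (left) and of T and NK cell markers (right), coloured by group. Pro-B arrays lie at the right of both panels, while leukemic arrays with Ptpn22 above 9 lie among the lower marker means of the left panel.

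Ptpn22 ranged widely among the leukemic samples. The 11 arrays for which no pIpC is named had 6.87 at the lowest, 8.36 at the median and 10.62 at the highest. The 5 pIpC arrays had 10.72 (A992), 9.59 (A1322), 10.62 (A1507), 9.44 (270) and 6.80 (A46). Over all 16 the mean was 8.93 ± 1.23 (SD), and all 16 lay above every pre-B array, with a difference of 3.54 (11.6-fold). Genes whose leukemic and pre-B ranges did not overlap were 1.55% of those measured, 0.75% with the leukemic side higher. Because Ptpn22 was chosen on this difference, nothing is read from that share. The difference was 3.96 within run 1 (12 leukemic and 4 pre-B arrays) and 2.35 within run 2 (4 and 4), 3.56 without array 122 and 3.59 without array 116.

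Set against pro-B cells, the leukemic level of Ptpn22 was 0.51 higher on average, with 8 leukemic arrays above every pro-B array and 2 below. Within run 1 the difference was 0.78, within run 2 it was -0.51, against pro-B replicates 1, 3 and 5 alone it was 1.04, and without array 122 it was 0.53. The direction thus differed between the runs. The leukemic range of Ptpn22 overlapped those of pro-B, immature B and mature B cells.

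Csk, the kinase that Ptpn22 binds, went the other way from Ptpn22 at the pre-B stage and rose again in immature B cells. It had 9.45, 9.73 and 10.10 (lowest, median and highest) on pro-B arrays, 9.95, 10.30 and 10.60 on pre-B arrays, 10.41, 10.78 and 11.19 on immature B arrays, and 10.87, 10.91 and 10.75 on the 3 mature B arrays. Neighbouring stages overlapped when the runs were pooled. Within each run, pre-B arrays lay above every pro-B array (9.95 to 10.10 against 9.45 to 9.52 in run 1, 10.49 to 10.60 against 9.94 to 10.10 in run 2) and immature B arrays lay above every pre-B array (10.41 to 10.59 in run 1, 10.96 to 11.19 in run 2). The share of all genes so separated within a run was not counted, here or for the other genes below.

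By limma, Csk rose by 0.52 (SE 0.15) from pro-B to pre-B cells (adjusted p = 0.0121) and by 0.50 (SE 0.15) from pre-B to immature B cells (adjusted p = 0.0196). It was 1.09 (SE 0.20) higher in mature B than in pro-B cells (2.13-fold, limma adjusted p = 0.00018). All mature B arrays were in run 2, where the mean was 10.03 on pro-B and 10.84 on mature B arrays. The run 1 pro-B arrays averaged 9.47, so the pooled difference holds part of the difference between runs. Between immature and mature B cells Csk differed by 0.07 (95% interval -0.34 to 0.48), and this difference was -0.23 within run 2. With pro-B replicates 1, 3 and 5 as the only pro-B arrays, the rise to pre-B was 0.38 and lost its call (adjusted p = 0.148). Leaving out immature B replicate 1, 2 or 3 left the step to immature B at 0.42 to 0.47 with adjusted p-values of 0.0516 to 0.0665.

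Leukemic Csk lay low, at 9.31, 9.73 and 10.75 (lowest, median and highest). The pooled mean, 9.76 ± 0.43 (SD, n = 16), differed from pre-B cells by -0.51 and from pro-B cells by 0.01. Most leukemic arrays were in run 1, where Csk was lower in each of these groups than in run 2. Run 1 means were 9.56 (leukemic), 9.47 (pro-B) and 10.02 (pre-B), and run 2 means were 10.37, 10.03 and 10.53. The leukemic mean thus lay above the pro-B and below the pre-B mean in each run. In run 1 all 12 leukemic arrays (9.31 to 9.92) lay below all 4 pre-B arrays, and in run 2 the 4 leukemic arrays (10.06 to 10.75) overlapped them, with a difference of -0.16. Without array 122 the differences were -0.48 from pre-B and 0.04 from pro-B cells.

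Ptpn6, the phosphatase that docks on inhibitory receptors, shared the fall and rise of Ptpn22 around the pre-B stage but did not rise further in mature B cells. Its values were 9.70, 10.30 and 11.01 (lowest, median and highest) on pro-B arrays, 9.10, 9.38 and 10.003 on pre-B arrays and 11.17, 11.53 and 12.20 on immature B arrays. On the mature B arrays they were 11.63, 11.55 and 11.60. Every immature B and every mature B array lay above every pro-B and pre-B array. For immature B above pre-B arrays, this was so for 5.05% of genes.

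The fall of Ptpn6 from pro-B to pre-B cells had a difference of -0.91 (SE 0.20, limma adjusted p = 0.00133), and 5 of 8 pre-B arrays lay below every pro-B array. The rise to immature B cells was 2.15 (SE 0.20), or 4.43-fold, with an adjusted p of 3.47e-08. Mature B cells were 1.198 (SE 0.26) above pro-B cells (limma adjusted p = 0.0013) and differed from immature B cells by -0.03 (95% interval -0.58 to 0.51). All mature B arrays were in run 2, where the means were 10.79 on pro-B, 11.94 on immature B and 11.59 on mature B arrays. In that run every mature B array (11.55 to 11.63) lay below every immature B array (11.665 to 12.20). Within runs the first step was -0.87 and -0.96 and the second 2.18 and 2.11, so both held in each. The other probe set of Ptpn6, whose target letters may be shared with other transcripts, gave differences of -0.84 and 2.03 for these steps.

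In leukemic arrays Ptpn6 was spread from 7.93 to 10.85 around a median of 9.57. Its pooled mean (9.40 ± 0.79, SD, n = 16) differed by -0.08 from pre-B and by -0.99 from pro-B cells. Run 1 means were 9.33 (leukemic) and 9.13 (pre-B), and run 2 means were 9.64 and 9.82. The leukemic mean thus lay above the pre-B mean in run 1 and below it in run 2. With the runs pooled, 4 of the 16 arrays lay above and 7 below every pre-B array, so the group mean hides a wide split. The highest value, 10.85, was that of array 122. Without it the differences were -0.17 and -1.09. The low end lay on arrays 228 (7.93) and 270 (8.41). The other probe set of Ptpn6 gave pooled differences of 0.12 from pre-B, opposite in sign, and -0.72 from pro-B cells.

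Ptprc encodes CD45, whose B220 form was the sorting marker of every sample. It had 10.54, 10.99 and 11.32 (lowest, median and highest) on pro-B arrays, 10.28, 10.58 and 10.78 on pre-B arrays, and 11.27, 11.49 and 11.63 on immature B arrays. The mature B arrays had 11.72, 11.92 and 11.68, all above every immature B array, as was so for 4.52% of genes. From pre-B to immature B cells Ptprc rose by 0.94 (SE 0.12, limma adjusted p = 2.4e-06), with 6 of 6 immature B arrays above every pre-B array, a separation seen for 5.05% of genes. Mature B cells were 0.82 (SE 0.16) above pro-B cells (adjusted p = 0.000293) and 0.30 above immature B cells (95% interval -0.02 to 0.62, adjusted p = 0.356).

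The earlier step of Ptprc was small and rested on part of the pro-B arrays. It fell from pro-B to pre-B cells (difference -0.42, SE 0.12, limma adjusted p = 0.0102). The pro-B replicates 2, 4 and 6 had 11.22 to 11.32 and replicates 1, 3 and 5 had 10.54 to 10.76. With replicates 1, 3 and 5 alone the difference was -0.09 (adjusted p = 0.506), and it was -0.53 within run 1 and -0.31 within run 2 (adjusted p = 0.0514 and 0.184). T cells, NK cells and plasmacytoid dendritic cells also make Ptprc, and the part of the marker signal in this step was not tested beyond those values.

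Leukemic arrays had Ptprc values of 9.20, 10.44 and 11.06 (lowest, median and highest), with a mean of 10.36 ± 0.54 (SD, n = 16), which differed by -0.18 from pre-B and by -0.60 from pro-B cells. In run 2 the 4 leukemic arrays (9.20 to 10.10) lay below all 4 pre-B arrays (10.34 to 10.78), a difference of -0.93. In run 1 the groups overlapped, with a difference of 0.08. The difference was below 0 in run 2 only. Without array 122 the pooled differences were -0.21 from pre-B and -0.63 from pro-B cells. The probe set, whose name ends in _a_at, reads several transcripts of the gene together.

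Inpp5d was the steadiest of the 5 genes. Its values were 10.83, 10.97 and 11.17 (lowest, median and highest) on pro-B arrays, 10.60, 10.88 and 11.03 on pre-B arrays, 10.85, 10.88 and 11.23 on immature B arrays, and 10.86, 10.49 and 10.43 on the mature B arrays. Neither step around the pre-B stage was called by limma: the differences were -0.14 (95% interval -0.32 to 0.04, adjusted p = 0.219) and 0.10 (-0.09 to 0.28, adjusted p = 0.492). Mature B cells had less than pro-B cells (difference -0.40, adjusted p = 0.0108). Without mature B replicate 2 or 3 that adjusted p was 0.0635 or 0.0782, and within run 2 it was 0.0611. From immature to mature B cells the difference was -0.36 (adjusted p = 0.0701), and -0.50 without mature B replicate 1 (adjusted p = 0.0372).

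In leukemic arrays Inpp5d had 10.72, 11.24 and 11.35 (lowest, median and highest) and a mean of 11.14 ± 0.21 (SD, n = 16). It was 0.28 above pre-B cells, with 12 of 16 arrays above every pre-B array, and 0.15 above pro-B cells. The difference from pre-B cells was 0.32 within run 1 and 0.07 within run 2. Without array 122 the differences were 0.27 from pre-B and 0.14 from pro-B cells. The dimmer probe set of the gene put it 0.24 above pre-B and 0.28 above pro-B cells, but in the normal stages it gave 0.04 for pre-B against pro-B and -0.08 for immature B against pre-B, opposite in sign to the brighter one.

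**Figure D3:**
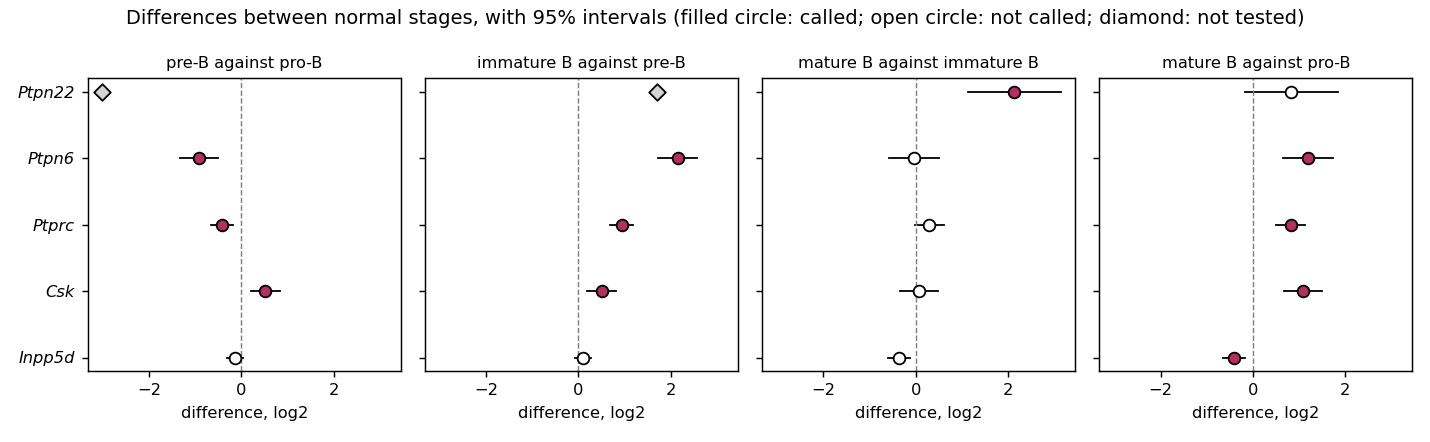
Differences in log2 intensity (horizontal axis) between normal stages for the 5 genes, with 95% intervals from limma; filled circles are called at an adjusted p below 0.05, open circles are not, and diamonds are the differences of Ptpn22 from pre-B cells, which were not tested. Ptpn6, Ptprc and Csk lie to the right of 0 from pre-B to immature B cells, and Ptpn22 alone is called from immature to mature B cells.

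Counted together, 3 of the 4 genes tested between pro-B and pre-B cells were called (Ptpn6 and Ptprc lower, Csk higher), where 33.6% of all genes were called, 17.9% higher and 15.7% lower. From pre-B to immature B cells 3 of 4 were called, all higher, where 10.9% of genes were called higher and 19.6% in either direction. From pro-B to mature B cells 4 of 5 were called, Ptpn6, Ptprc and Csk higher and Inpp5d lower, where 28.1% of genes were called, 13.6% higher and 14.6% lower. With pro-B replicates 1, 3 and 5 alone, 1 of 4 was called between pro-B and pre-B cells, Ptpn6. The genes were picked by name, and these shares describe them beside the background and no more.

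Leukemias that arose after pIpC did not differ detectably from the others in any of the 5 genes. Ptpn22 was 0.74 higher (95% interval -0.53 to 1.998; 0.41 to 1.39 over single arrays left out, lowest without A992 and highest without A46, and 1.33 within run 1), Csk 0.25 higher (-0.21 to 0.72) and Ptprc lower, with a difference of -0.47 (-1.01 to 0.07). Ptpn6 differed by -0.25 (-1.09 to 0.60) and Inpp5d by -0.03 (-0.29 to 0.22). By limma 0 of 12393 genes were called (0.0%), 603 (4.87%) had an unadjusted p under 0.05, and the adjusted p of the 5 genes ran from 0.933 to 0.975. With 5 arrays against 11 and this spread, differences of the size of the intervals' ends remain possible.

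Across the 16 leukemic arrays Ptpn22 varied with 2 of the other genes. It rose with Inpp5d (r = 0.72, adjusted permutation p = 0.0157; Spearman's rho = 0.74, adjusted p = 0.0177) and fell as Ptpn6 rose (r = -0.66, adjusted permutation p = 0.0189; rho = -0.67, adjusted p = 0.0192). The raw permutation p-values of these r were 0.0016 and 0.00568, and the Benjamini-Hochberg adjustment covered all 10 pairs of the 5 genes. Csk and Ptprc did not overlap between the 2 runs of leukemic arrays, so no pooled r is given for any pair with either gene. Within run 1, the r of Ptprc with Inpp5d was 0.52 (permutation p = 0.0765) and that of Ptprc with Csk was 0.38 (permutation p = 0.222).

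The runs also differed in the genes of the first pairs: Ptpn22 averaged 9.31 on the run 1 and 7.79 on the run 2 leukemic arrays, and Inpp5d 11.23 and 10.88. Within run 1, with 12 arrays, Ptpn22 gave r = 0.51 with Inpp5d and -0.63 with Ptpn6, and none of the 10 pairs passed the adjustment (adjusted permutation p = 0.283 and 0.273). Run 2 held 4 leukemic arrays, too few for a value. Leaving out the 2 arrays farthest from the median of Ptpn22 gave r = 0.56 with Inpp5d (adjusted permutation p = 0.0741) and -0.64 with Ptpn6 (0.0462). Without array 122 they were 0.74 and -0.72, and with the mean of both probe sets of Ptpn6 and Inpp5d they were 0.65 and -0.59. The relation of Ptpn22 with Inpp5d thus lost its call without the 2 farthest arrays. With the mean of both probe sets, the relation with Ptpn6 lost its call (adjusted permutation p = 0.0557) and that with Inpp5d kept it (0.0426). By rho, neither passed without the 2 farthest arrays (adjusted permutation p = 0.0638 for each). Neither passed within run 1.

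**Figure D4:**
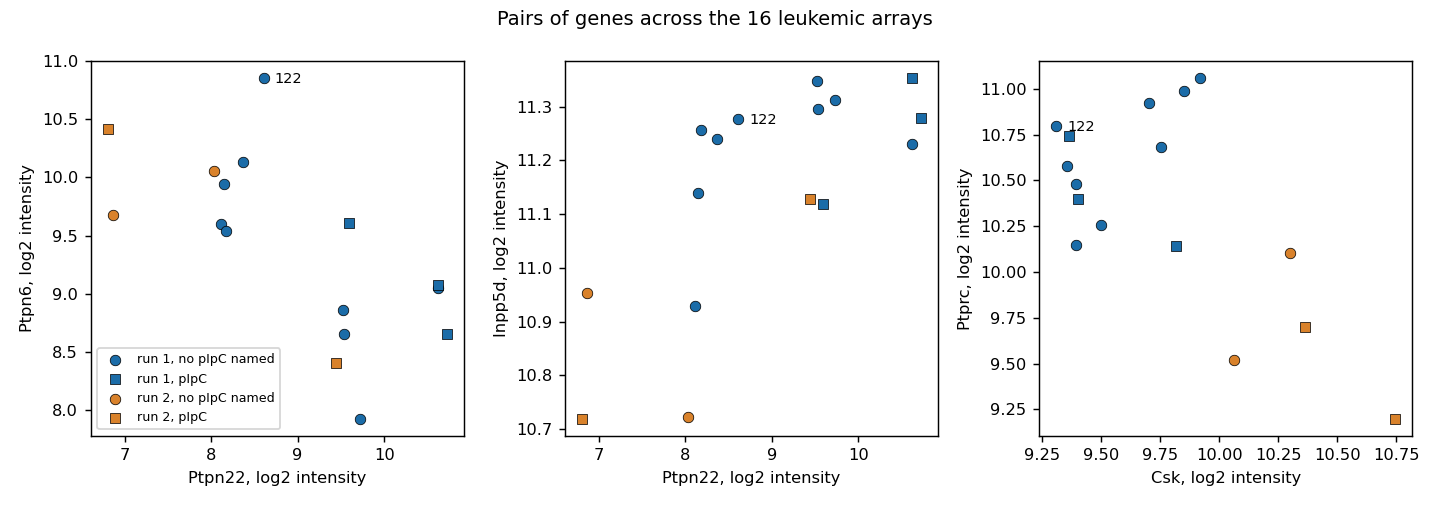
Log2 intensities of Ptpn6 against Ptpn22, Inpp5d against Ptpn22 and Ptprc against Csk on the 16 leukemic arrays; colour marks the accession run, squares mark pIpC arrays and array 122 is labelled. The 3 lowest Ptpn22 values (6.80, 6.87 and 8.03) are on run 2 arrays, and in the right panel all 4 run 2 arrays lie to the right of the run 1 arrays.

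By Pearson's r over all 39 arrays, the named genes most like Ptpn22 were Lfng (0.79), Snhg16 (0.77), St6galnac2 (0.77), Rab8b (0.76) and Pvt1 (0.76). Lfng, a glycosyltransferase that modifies Notch receptors, averaged 8.71 on pro-B arrays, 6.57 on pre-B arrays, 6.56 on immature B arrays, 8.35 on mature B arrays and 8.87 on leukemic arrays. It shared the low pre-B and the high leukemic level of Ptpn22 but not the rise in immature B cells. Pvt1, a long noncoding RNA gene beside Myc, had 5.82, 4.47, 5.85, 6.55 and 6.88 in the same order.

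Inside the leukemic group alone, other genes were most like Ptpn22: Hipk1 (r = 0.86), Nr3c1 (0.84), Fbxo3 (0.81), Hnrnpul1 (0.81) and Arl1 (0.81), over 16 arrays. Nr3c1 is the glucocorticoid receptor, and its group means ran from 10.8 in pre-B to 11.3 in immature B cells. None of these was among the 5 of the 39 arrays. Over 39 arrays Ptpn6 was most like Cd52 (0.91) and Rgs19 (0.89), Ptprc most like Ero1b (0.86) and Haao (0.86), Csk most like Cib1 (0.90) and Gatad2b (0.89), and Inpp5d most like Rnmt (0.86) and Arl1 (0.86). These correlations include the differences between groups and runs and carry no test.

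The receptors on which Ptpn6 and Inpp5d dock were among the genes that rose from pre-B to immature B cells. The median of the myeloid marker list rose over the same step (9.21 to 10.31), and the part of these markers in the receptor values was not tested. Of 17 inhibitory receptors listed, 12 were measured, and 7 rose and 0 fell from pre-B to immature B cells, with a median difference of 0.95 against -0.06 for all genes, of which 10.9% were called higher. Cd22, a sialic acid receptor that recruits Ptpn6, rose by 2.36 (limma adjusted p = 7.18e-07). Fcgr2b, the IgG receptor that recruits Inpp5d, rose by 1.07 (adjusted p = 2.83e-05), and Cd72, another receptor that recruits Ptpn6, by 0.83 (adjusted p = 0.0137). Pirb rose by 2.36. Fcrl1, which rose by 2.86, was listed here but is known as an activating coreceptor of B cells rather than a brake. Within run 1 the count was 6 of 12, where 10.6% of all genes were called in either direction.

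At the step before, from pro-B to pre-B cells, 4 of the 12 receptors rose and 5 fell, where 17.9% of all genes were called higher and 15.7% lower. Fcrl1 rose by 1.86 and Cd72 by 1.24, while Lair1, Cd300a and Pirb fell, with differences of -4.19, -2.91 and -2.85. Lair1 is also in the plasmacytoid dendritic list, whose means fell over the same step, and with pro-B replicates 1, 3 and 5 alone the counts were 3 and 5, where 18.1% of genes were called. Cd22 (0.35, limma adjusted p = 0.315) and Fcgr2b (0.36, adjusted p = 0.0848) were not called, though Fcgr2b was with the run as a covariate (adjusted p = 0.0246). From immature to mature B cells 0 of the 12 were called, and Cd22, Fcgr2b and Cd72 differed by 0.34, 0.21 and -0.58. With the run as a covariate Cd72 was called there (-0.93, limma adjusted p = 0.00918).

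Other intracellular brakes, 18 measured of 25 listed, changed in both directions from pro-B to pre-B cells, with 3 up and 4 down, a share near the 33.6% of all genes called there. Dok3, an adaptor that recruits Inpp5d, rose by 2.26 (limma adjusted p = 3.48e-09). Pag1, the membrane adaptor that anchors Csk, fell (difference -1.14, adjusted p = 1.94e-07), as did Ptpn18, a phosphatase of the same family as Ptpn22 (-1.26). Sla2 and Dok2, adaptors found in T cells among others, fell too (-2.92 and -1.92). From pre-B to immature B cells 6 rose and 0 fell, where 10.9% of all genes were called higher. Ptprj, a receptor phosphatase, rose by 2.16, Pag1 by 1.51 and Lpxn by 1.25. Pag1 thus fell and rose around the pre-B stage, as Ptpn22 and Ptpn6 did.

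From immature to mature B cells Dgka, a diacylglycerol kinase, rose by 1.48 (limma adjusted p = 0.000147) and Ptprj fell (-1.19, adjusted p = 0.00291), and the other 16 intracellular brakes were not called. Of all genes, 5.25% were called in this step. Pag1 differed by -0.01 and Dok3 by -0.10. Over the whole span from pro-B to mature B cells 6 of the 18 were higher and 2 lower, where 13.6% of all genes were called higher and 14.6% lower. Lpxn, Dgka and Dok3 were higher by 2.37, 2.27 and 2.23.

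The kinases that these enzymes act on also moved. Of 13 Src, Syk and Tec family kinases listed, 9 were measured. From pro-B to pre-B cells 4 rose and 4 fell, where 17.9% of all genes were called higher and 15.7% lower. Syk rose by 1.33 and Blk, a Src kinase of B cells, by 1.30, while Fgr (-3.48), Zap70 (-1.66), the Syk family kinase of T and NK cells, and Fyn (-1.43) fell. With pro-B replicates 1, 3 and 5 alone 1 rose and 3 fell, where 18.1% of all genes were called, and Blk (0.58, limma adjusted p = 0.119) lost its call. From pre-B to immature B cells Fyn was the only kinase called (-0.48, limma adjusted p = 0.0422), where 19.6% of all genes were called. That call was lost within run 1 (adjusted p = 0.0824). With the run as a covariate 2 kinases were called higher and 1 lower, where 28.2% of genes were called. From immature to mature B cells Tec was the only kinase called, higher by 1.30 (limma adjusted p = 0.0016), where 5.25% of genes were called. Of 16 measured genes of the receptor's own signal chain, of 20 listed, 5 rose and 0 fell from pre-B to immature B cells. Of all genes, 10.9% were called higher there. Vav1 and Plcg2 were each higher by 0.88. From pro-B to pre-B cells 4 rose and 2 fell, a share near the 33.6% of all genes called, and Cd79b, a signalling chain of the receptor, rose by 1.21. With pro-B replicates 1, 3 and 5 alone 3 rose and 1 fell, where 18.1% of all genes were called, and Cd79a, Blnk and Nfatc1 lost their calls.

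In leukemic cells the partners of the 5 genes were tested against pre-B cells, where 16% of all genes were called, 8.5% higher and 7.53% lower. The lists, like the 5 genes, were chosen with earlier leukemic results known, so these tests are not independent evidence. Of the 18 intracellular brakes 2 were higher and 3 lower. Pag1 was 1.14 higher (limma adjusted p = 7.67e-07), with 15 of 16 leukemic arrays above every pre-B array, and Ptpn18 was 1.01 higher (adjusted p = 8.37e-05). Dok3 was lower (difference -1.78, adjusted p = 4.39e-07), below every pre-B array on 16 of 16, a separation seen for 0.799% of genes. Inppl1, a relative of Inpp5d, and Dgka had differences of -1.53 and -0.81, and both lost their call within run 1 (adjusted p = 0.0868 and 0.284).

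Of the 12 inhibitory receptors, 0 were called higher and 1 lower in leukemic than in pre-B cells. Of all genes, 8.5% were called higher there and 7.53% lower. The receptor called was Cd72, with a difference of -2.90 (limma adjusted p = 4.05e-06) and 16 of 16 arrays below every pre-B array. Such a separation was seen for 0.799% of genes. Cd22 (-0.09) and Fcgr2b (-0.60) were not called. Among the kinases Blk (-2.93) and Syk (-1.71, adjusted p = 5.9e-08) were lower on all 16 arrays and Zap70 was higher (2.31, adjusted p = 0.00225). Of the signal chain 0 were higher and 4 lower, led by Blnk (-1.80), the adaptor below Syk, and Pik3ap1 (-1.26). Within run 1 the chain had 2 called, where 8.08% of all genes were called, and Blnk was not (limma adjusted p = 0.16). Without array 122 the counts were 2 higher and 4 lower for the intracellular brakes, where 17.5% of all genes were called. Those of the other 3 lists were as before.

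Against pro-B cells, where 15.7% of genes were called: 8.11% higher and 7.63% lower, leukemic cells had 0 higher and 4 lower of the intracellular brakes, 0 and 5 of the inhibitory receptors, 0 and 3 of the kinases and 0 and 1 of the signal chain. Pag1 (difference -0.00063) and Dok3 (0.48, limma adjusted p = 0.196) were not called. The called genes included Lair1 (-4.59), Fgr (-4.10) and Sla2 (-3.16), for which the pro-B arrays were high. These counts depended on the pro-B arrays and the run: with pro-B replicates 1, 3 and 5 alone they were 1, 1, 1 and 0 lower, where 1.69% of genes were called, and within run 1 they were 2, 2, 2 and 0 lower, where 2.78% were called. Without array 122, 1 inhibitory receptor and 3 genes of the signal chain were called higher, where 22.0% of genes were called.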

How the data were processed

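Total RNA (20 ng, extracted with Trizol) was amplified and labelled with the NuGEN Ovation system per the labels. The deposited values are 1 intensity per probe set and array on a linear scale, which, per the submitters' processing notes, came from RMA; version, array software and whether all arrays were normalized together are not given in the sources used here. They were taken to log2 with no offset. Of 22690 probe sets, 64 controls, 691 with several symbols and 1555 without a symbol were left out. Each of 12393 genes was represented by the probe set with the highest mean over 39 arrays. For Ptpn6 and Inpp5d, with 2 probe sets each, the other probe set is named where it differs. Intensities of different probe sets are not levels that can be set against each other.

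Normal stages were compared in 1 fit of 23 arrays and the pIpC groups in 1 fit of 16, with limma 3.58.1 in R 4.3.3 (lmFit, eBayes with intensity trend), Benjamini-Hochberg adjustment over all genes and a threshold of 0.05. "Called" means past it. Lists were fitted the same way, also between leukemic and normal groups. Correlations used 100000 permutations, two-sided. The fit was tested on simulated data. The members and lists were chosen with earlier results of these data known. Ptpn22 was chosen on leukemic against pre-B cells, so it was given no test in any comparison that uses the pre-B arrays, although a test of the normal steps had been planned. Genes were named by rule: the 5 members, the genes most like them by r, and in each list up to 3 called genes per direction and comparison with the largest differences, plus Pag1, Cd22, Fcgr2b, Cd72 and Dok3. No array was left out. The number of arrays limits the precision. Replicate numbers were not found to pair the samples. Alternatives were another normalization, a filter on dim genes, other probe set rules, all arrays in 1 fit, no trend, the accession run and each array left out.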

Additional observations from a re-analysis of the deposited data

Results flagged for a closer look

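The Ptpn22 value of immature B replicate 4, 4.87, lay far from the other 5 immature B arrays, the nearest of which was at 7.30. Its gap to that array was larger than Dixon's 95% critical value allows for 6 arrays. Of 28 groups of arrays examined for the 7 probe sets, this was the only one with such an array. The gap was 0.82 of the range of the 6 values, against a critical value of 0.625. A 95% value can flag an array by chance, and the 28 groups share arrays, so nothing is read from the count. The Ptpn6 (11.39), Ptprc (11.63), Csk (10.44) and Inpp5d (10.89) values of immature B replicate 4 lay within the range of the other immature B arrays or at its edge. Its B-lineage marker mean, 11.13, was also within their range. The cause was not tested.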

How the results depend on the processing

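Of the 262 values of single genes recomputed under settings other than leaving out 1 array, 239 kept direction and call. The number of the 5 genes called from immature to mature B cells was 1, and became 2 with the dimmest 40% of genes left out and 0 with all 39 arrays in 1 fit, within run 2, or with the replicate number as a block (Ptpn22 2.03, adjusted p = 0.0513); leaving out single arrays gave 0 to 1. From pro-B to mature B it was 4, and 2 of the 3 measured without probe sets ending in _x_at, _s_at or _a_at. From pro-B to pre-B it was 3 of 4, and 1 with pro-B replicates 1, 3 and 5 alone, where the Ptpn22 difference was -2.50. The leukemic minus pre-B difference of Ptpn22 was 2.35 within run 2. Correlated pairs numbered 4 of 10, pairs with Csk or Ptprc included, and 0 within run 1 and 2 with the mean of all probe sets. The leukemic minus pro-B difference of Ptpn22, which has no test, was 0.51 and turned to -0.51 within run 2. Among tested values, signs turned for uncalled differences. Csk from immature to mature B was -0.21 with the run as covariate, -0.23 within run 2, -0.18 with the block, and -0.0012 and -0.0078 without immature B replicate 4 or 5 (-0.0078 to 0.15 over single arrays left out). Ptpn6 there was 0.081 and 0.029 without immature B replicate 1 or 3 (-0.13 to 0.081 over single arrays). For pIpC, Csk was -0.048 within run 1, and Inpp5d was 0.064 with the mean of all probe sets, 0.044 with the run as covariate, 0.026 and 0.086 within runs 1 and 2, and 0.066 without array A46 (-0.093 to 0.066 over single arrays). Mature B could not be compared within run 1, which held no mature B array. The causes were not tested. The replicate block ended no call but that of Ptpn22 above. Samples with the same number correlated by 0.11 on average (27 pairs, lowest -0.74), so the numbers were not taken to pair them. Ptprc from pro-B to pre-B lost its call with all 39 arrays in 1 fit (adjusted p = 0.13), as did Csk from pre-B to immature B (0.0838). Over all genes, the number called from immature to mature B cells was 651, and 203 with all 39 arrays in 1 fit and 1026 with the run as covariate. From pro-B to pre-B it was 4162, and 2055 to 2626 with dim genes left out, all 39 arrays, either run alone or pro-B replicates 1, 3 and 5. From pre-B to immature B it was 2426, and 1414 with all 39 arrays and 1314 within run 1. From pro-B to mature B it was 3485, and 2276 with all 39 arrays and 5482 with the run as covariate. For pIpC it was 0, and 59 with all 39 arrays and 1 within run 1. The run as a setting was planned; pro-B replicates 1, 3 and 5 alone and array 122 left out of the lists were chosen after seeing the data.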
